A study of Homo sapiens with 12 samples.

Results

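The response of HCT116 cells, a human colorectal cancer line with wild-type p53, to the second of a pair of siRNAs against LRH-1 was described across all measured genes. The comparison comprised 8 of the 12 arrays of the study, 4 of cells given siLRH-1 #2 and 4 of cells given siLUC, a control siRNA against luciferase, a gene that human cells lack. The remaining 4 arrays, from cells given siLRH-1 #1, served here to tell which changes differed between the siRNAs. Each siRNA was delivered with a lipid reagent at 5 nM, and RNA was taken 24 h later. The cells carried no transgene and received no other treatment, so that every value belongs to 1 cell line and 1 siRNA duplex per group. The methods describe the 4 samples of a group as independent biological replicates.

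LRH-1, the product of NR5A2, is an orphan nuclear receptor that binds DNA as a monomer. It is known for the control of bile acid and cholesterol genes in liver and of enzyme genes in pancreas. In the intestine it acts in the crypts, where cells divide, and it can work with β-catenin. An siRNA guides the Argonaute complex to the transcript it matches, and each siRNA also has a seed region of its own that can pair with other transcripts. For this reason a change seen with 1 siRNA and not with the other is reported apart from a change seen with both. The NR5A2 transcript was not analysed here, so the values given here hold no measure of the knockdown.

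Values were log2 intensities of 16381 probes. A single gene symbol was given for 9910 of them, and the brightest probe of each symbol gave 7452 genes. The median log2 intensity of an array was 6.487 to 6.496, and arrays of the same group correlated at 0.996 or more. Of 8 markers of colorectal epithelium, 6 were measured, with mean log2 intensities of 8.02 to 12.5, and their summed log2 level was 61.03 to 61.19 on the siLRH-1 #2 arrays and 60.87 to 61.29 on the siLUC arrays. The 3 measured fibroblast and endothelial markers, COL1A1, COL1A2 and DCN, had mean log2 intensities of 5.97 to 6.33, near the 5th percentile of all probes (5.92), and summed to 18.18 to 18.4 with siLRH-1 #2 and 18.21 to 18.46 with siLUC. The 2 measured leukocyte markers, CD14 and CD68, had mean log2 intensities of 6.12 to 7.95, beside a median of 6.48 over all probes. They summed to 13.95 to 14.08 with siLRH-1 #2 and 14.04 to 14.31 with siLUC. In limma 0 of these 11 markers passed the test, and 4 had an unadjusted p under 0.05.

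The arrays fell into 2 sets whose probe means were nearly equal. One set of 5 held replicates 2, 3 and 4 of siLRH-1 #2, replicate 3 of siLRH-1 #1 and replicate 2 of siLUC, and the other set of 7 held the remaining arrays, with only replicate 1 of siLRH-1 #2. Across probes the mean of a set differed from that of the other by a median of 0.00263 on the log2 scale, against 0.0246 for the next best of 2035 splits of the arrays. As the siLRH-1 #2 arrays lay mostly in the set of 5 and the siLUC arrays mostly in the set of 7, a fit with a term for the set gave larger changes. The fold change without the term was close to 0.772 times that with it plus 0.116 times the fold change of siLRH-1 #1. The fold change of siLRH-1 #1 itself could not depend on the term (largest difference 0). Both siLRH-1 #1 and siLUC had 1 array in the set of 5 and 3 in the set of 7, so that the term cancels. What made the sets was not tested. The sources used here name no batch correction, and whether one had been applied before deposit was not tested. Without the term the median absolute log2 fold change of all probes was 0.0654, against 0.0781 with it. Fold changes without the term were thus mostly smaller and held part of the siLRH-1 #1 change. Values below come from the fit without the term unless they are called set-adjusted, and the set-adjusted value is given beside each main result.

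**Figure D1:**
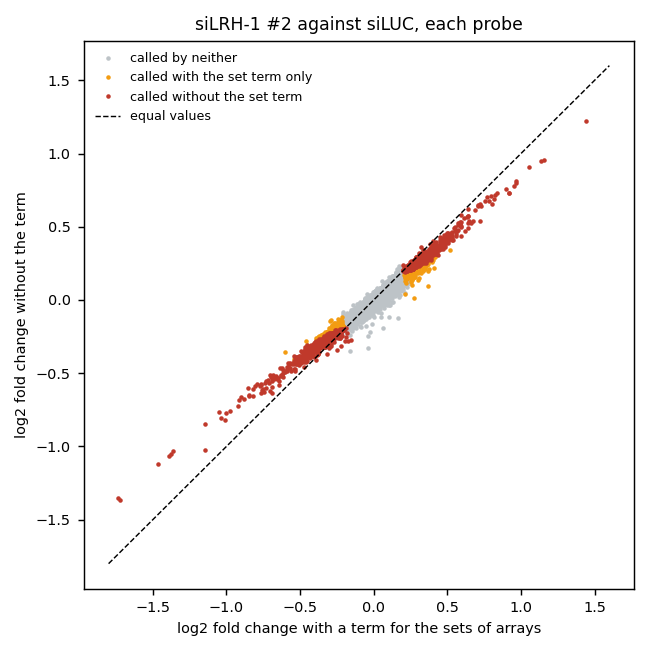
Log2 fold change of each of the 16381 probes with siLRH-1 #2 against siLUC, with a term for the 2 sets of arrays (horizontal axis) and without it (vertical axis). Points are coloured by whether the probe passed an adjusted p of 0.05, and they lie along a line flatter than that of equal values (dashed), so that most changes were larger with the set term.

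With siLRH-1 #2, CLDN12, FGFR3 and DCP2 showed the largest rises and CPA4, CFDP1 and DYNLRB1 the largest falls of all named genes. In all, 329 of 7452 genes rose (4.41%) and 296 fell (3.97%) at an adjusted p under 0.05 in limma. Set-adjusted, 501 rose (6.72%) and 450 fell (6.04%), and 323 of the 329 and 286 of the 296 were called in both fits. Counted by probe, 469 rose (2.86%) and 467 fell (2.85%), and 720 (4.4%) and 708 (4.32%) when set-adjusted. In all, 936 probes (5.71%) were called, and 1428 (8.72%) when set-adjusted. For all 936, the change had the same sign within the set of 5 and within the set of 7. This is no separate support, as the probes were called on the same arrays. For 419 of the 469 rises and 430 of the 467 falls the groups did not overlap, which fixes the sign within each set. That share was not counted over all probes. Over all genes, called or not, 8.71% lay wholly above siLUC and 7.9% wholly below. The count of 936 became 498 without siLRH-1 #2 replicate 1 and 514 without siLUC replicate 2, each of which stands alone in its set for its group. It was 367 with each probe's own variance and 165 with each array centred on the median of the reference genes, which moved the median fold change of all probes by 0.0365. The log2 reference gene median ranged from 11.75 to 12.18 between siLRH-1 #2 arrays and from 11.79 to 12.11 between siLUC arrays. Among probes without a single symbol, 64 rose and 96 fell of 6471.

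Most changes were small. The median fold change of the called genes was 1.23 for rises and 1.24 for falls. Of the rises 16 exceeded 1.5-fold and 1 exceeded 2-fold, and of the falls 20 and 4 did so. Set-adjusted, 30 rises and 46 falls exceeded 1.5-fold, and 4 and 7 exceeded 2-fold. The 4 arrays of siLRH-1 #2 lay wholly above the 4 of siLUC for 299 of the 329 genes that rose, against 8.71% of all genes, and wholly below them for 275 of the 296 that fell, against 7.9% of all genes. Called genes were brighter than others, with a median log2 intensity of 8.61 for rises and 8.47 for falls, against 7.09 for genes not called.

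CLDN12, a claudin of the tight junction, had the largest rise. Its log2 intensity was 9.19, 8.43, 8.58 and 8.60 on the siLRH-1 #2 arrays and 7.60, 7.25, 7.57 and 7.48 on the siLUC arrays. Every siLRH-1 #2 array was above every siLUC array, with replicate 1 highest. The log2 fold change was 1.22 (standard error 0.12, adjusted p = 1.33e-06 from limma) and the set-adjusted one 1.44, a fold of 2.34 and 2.71. It exceeded the rise with siLRH-1 #1 (0.94) by 0.28, which passed the test when set-adjusted (adjusted p = 6.7e-05) but not without the set term (adjusted p = 0.133).

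FGFR3, a receptor tyrosine kinase for fibroblast growth factors, had 9.34, 8.99, 8.92 and 9.03 with siLRH-1 #2 and 8.24, 7.86, 8.15 and 8.18 with siLUC. The groups did not overlap, and the log2 fold change was 0.96 (standard error 0.10, adjusted p = 4.2e-06 from limma; set-adjusted 1.15). A dimmer FGFR3 probe, with a mean log2 intensity of 6.52, had −0.13 and was not called. DCP2, the enzyme that removes the cap of messenger RNAs, had 10.08, 9.74, 9.69 and 9.72 with siLRH-1 #2 and 9.11, 8.50, 8.97 and 8.85 with siLUC. These again lay apart, with a log2 fold change of 0.95 (set-adjusted 1.13).

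EPDR1, a secreted protein related to ependymin, had 10.21, 9.84, 9.78 and 9.78 with siLRH-1 #2 and 9.25, 9.00, 9.30 and 9.14 with siLUC, a log2 fold change of 0.73 (set-adjusted 0.84, adjusted p = 9.42e-06 in limma without the term). The other genes among the 15 largest rises had log2 fold changes between 0.62 and 0.91. They included ASAH2B, which resembles neutral ceramidase (0.91), CBFB, the partner of the RUNX transcription factors (0.73), the CDC42 effector CDC42SE2 (0.70), NAPB, which acts in vesicle fusion (0.68), the engulfment adaptor GULP1 (0.67), the glycosyltransferase B3GALNT1 (0.66), the ligand-dependent corepressor LCOR (0.64) and the Mediator subunit MED28 (0.62). FHIP2A, C4orf46 and C17orf58 completed the group. On all 15 genes the arrays of the groups lay apart, and all but CBFB also rose with siLRH-1 #1.

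**Figure D2:**
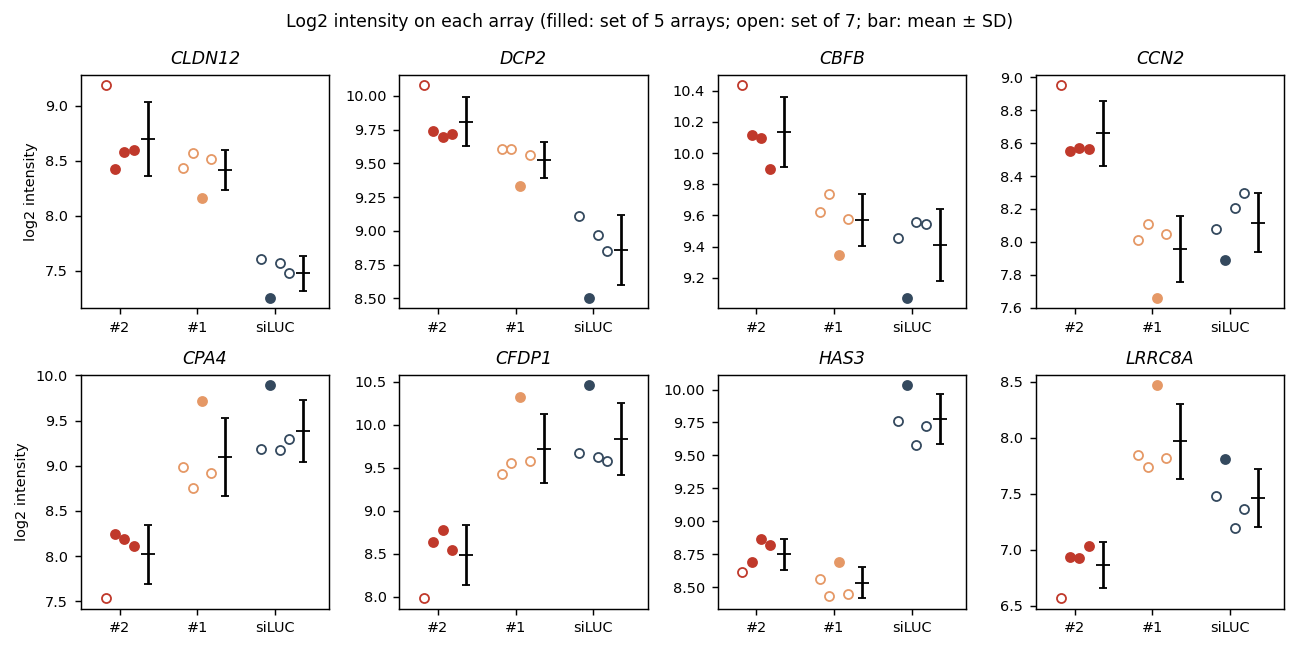
Log2 intensity (vertical axis) of 8 genes on each array, with siLRH-1 #2, siLRH-1 #1 and siLUC from left to right. Filled points are arrays of the set of 5 and open points those of the set of 7, and bars show the mean ± SD of 4 arrays. CLDN12, DCP2 and HAS3 moved in the same direction with both siRNAs, whereas CBFB, CCN2, CPA4, CFDP1 and LRRC8A separated siLRH-1 #2 from siLRH-1 #1.

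CPA4, a metallocarboxypeptidase, and CFDP1, a chromatin-associated protein, fell most. CPA4 had 7.54, 8.25, 8.19 and 8.12 with siLRH-1 #2 and 9.18, 9.89, 9.17 and 9.29 with siLUC. All siLRH-1 #2 arrays were lower, and within each group the array that stood alone in its set lay farthest out, replicate 1 of siLRH-1 #2 low and replicate 2 of siLUC high. CPA4 fell by 1.36 in log2 terms (standard error 0.17, adjusted p = 2.1e-05 from limma), a fold of 2.57, and by 1.72 when set-adjusted, a fold of 3.30.

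CFDP1 showed the same arrangement, with 7.98, 8.63, 8.77 and 8.55 with siLRH-1 #2 and 9.67, 10.46, 9.62 and 9.58 with siLUC. It fell by 1.35 (standard error 0.18, adjusted p = 4.53e-05 from limma; set-adjusted −1.73). DYNLRB1, a light chain of the dynein motor, had 8.44, 9.20, 9.36 and 9.36 with siLRH-1 #2 and 9.98, 10.56, 10.28 and 10.02 with siLUC, and fell by 1.12 (set-adjusted −1.46). Its 3 other probes fell by 1.03 to 1.06.

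HAS3, a hyaluronan synthase, had 8.61, 8.69, 8.87 and 8.82 with siLRH-1 #2 and 9.76, 10.03, 9.58 and 9.72 with siLUC. It fell by 1.03 (standard error 0.083, adjusted p = 1.32e-07 from limma; set-adjusted −1.15). The remaining genes among the 15 largest falls lay between −0.63 and −0.85. Among them were the TFIIE subunit gene GTF2E1 (−0.77), LYPLA2, which removes palmitate from proteins (−0.76), FEM1A, a substrate receptor of a cullin ligase (−0.65), ARCN1, the δ subunit of the COPI vesicle coat (−0.66), and DNMT3B, which places new DNA methylation (−0.64). PROSER1, DCAKD, FAM234A, C8orf33, FAM171A1 and BBOF1 made up the rest, and the arrays of the groups lay apart for each of the 15. Of these, HAS3, DCAKD, DNMT3B and BBOF1 also fell with siLRH-1 #1.

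Where a called gene among those named had further probes, 30 of 59 such probes were called in the same direction, 0 in the opposite direction and 29 were not called. CBFB was among the genes whose probes disagreed, since its dimmer probe (mean log2 intensity 5.94) had 0.04. Dimmer probes of KATNAL1 (−0.08), CD47 (0.12), ASNS (0.13) and CDKN1A (0.10) and the dimmest of FHIP2A (−0.02) were not called either. The same held for dimmer probes of DKK1 (−0.02), MT1E (−0.19) and BRCA1 (−0.12), genes that fell.

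A direct test between the siRNAs separated the changes that siLRH-1 #1 also gave from those it did not. Across all genes, 737 were higher (9.89%) and 609 lower (8.17%) with siLRH-1 #2 than with siLRH-1 #1 in limma, and 870 (11.7%) and 718 (9.63%) when set-adjusted. The comparisons share arrays, so the counts below describe the 625 called genes and are no test of their own. With siLRH-1 #1 against siLUC, 1752 of 7452 genes (23.5%) were called. Of the 329 genes that rose with siLRH-1 #2, 212 (64.4%) also rose with siLRH-1 #1. Another 50 (15.2%) did not rise with siLRH-1 #1 and were higher in the direct test, and for 67 (20.4%) neither held, so that no difference was shown. Of the 296 genes that fell, 144 (48.6%) also fell with siLRH-1 #1, 107 (36.1%) did not and were lower in the direct test, and 45 (15.2%) were undecided. Set-adjusted, the genes that differed without a call in the same direction with siLRH-1 #1 numbered 189 of 501 rises (37.7%) and 238 of 450 falls (52.9%). Taken over all called genes, 168 differed from siLRH-1 #1 in the direction of their change, and 466 did so when set-adjusted. The 168 became 57 without siLRH-1 #2 replicate 1, 94 without siLUC replicate 2, 32 with the arrays centred on reference genes and 5 with variances not moderated across probes.

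**Figure D3:**
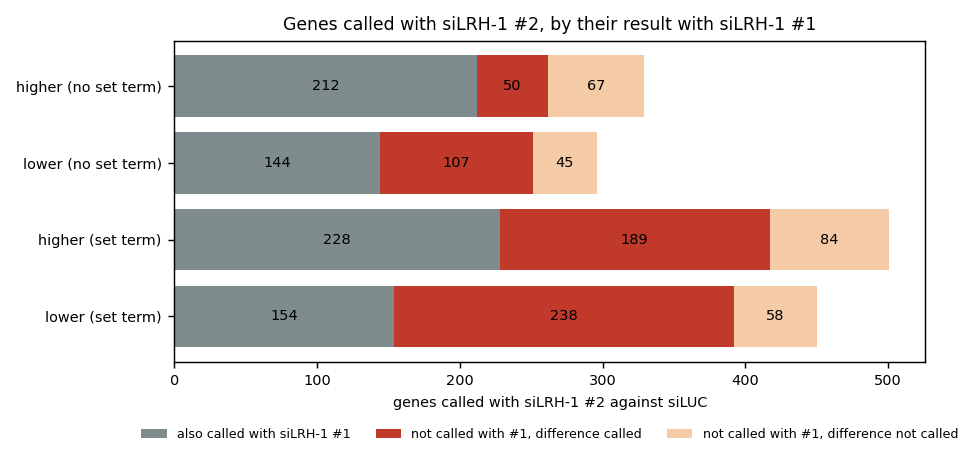
Number of genes called with siLRH-1 #2 against siLUC (horizontal axis), higher or lower, without and with the set term. Each bar is split into genes also called in the same direction with siLRH-1 #1, genes not so called whose difference between the siRNAs passed the test, and genes for which neither held; the middle class held 50 and 107 genes without the set term and 189 and 238 with it.

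Among the rises that siLRH-1 #1 did not give were a pair of cell cycle inhibitors, a matricellular gene and a histone acetyltransferase. CCN2, a matricellular protein and a target of YAP, differed most. Its log2 intensity was 8.95, 8.55, 8.57 and 8.56 on the siLRH-1 #2 arrays, 8.01, 8.11, 7.66 and 8.04 on the siLRH-1 #1 arrays, and 8.08, 7.89, 8.20 and 8.30 on the siLUC arrays. The siLRH-1 #2 arrays lay above all 8 others. The log2 fold change was 0.54 with siLRH-1 #2 (set-adjusted 0.72) and −0.16 with siLRH-1 #1, which differed by 0.70 (adjusted p = 2.52e-05, limma). A dimmer CCN2 probe had 0.26 with siLRH-1 #2 and was not called, while its difference from siLRH-1 #1, 0.45, was called.

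CBFB had 10.44, 10.12, 10.10 and 9.89 on the siLRH-1 #2 arrays, 9.62, 9.74, 9.34 and 9.58 on the siLRH-1 #1 arrays, and 9.46, 9.07, 9.56 and 9.55 on the siLUC arrays. No array of the other groups reached those of siLRH-1 #2. The log2 fold change reached 0.73 with siLRH-1 #2, against 0.16 with siLRH-1 #1 (adjusted p for the difference 0.000568 in limma).

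CDKN1B, which encodes the CDK inhibitor p27, had 8.67, 8.41, 8.41 and 8.32 on the siLRH-1 #2 arrays, 7.99, 8.16, 7.69 and 7.98 on the siLRH-1 #1 arrays, and 8.02, 7.94, 8.20 and 8.04 on the siLUC arrays. It rose by 0.41 with siLRH-1 #2 (set-adjusted 0.54) and had −0.09 with siLRH-1 #1, which differed by 0.50 (adjusted p = 0.000262, limma). Its other probe gave 0.45 and 0.14. CDKN2D, the INK4 inhibitor p19, had 0.31 with siLRH-1 #2 and −0.12 with siLRH-1 #1 (adjusted p for the difference 0.000649).

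The other genes of this kind named by size of difference were CD47, a surface signal that restrains phagocytes (0.44 with siLRH-1 #2 and −0.15 with siLRH-1 #1), the MYB relative MYBL1 (0.47 and −0.04), the acetyltransferase KAT2B (0.49 and −0.01), the retinoic acid hydroxylase CYP26B1 (0.36 and −0.13), the microtubule-severing KATNAL1 (0.43 and −0.01) and H3-3B, which encodes histone H3.3 (0.28 and −0.17). The differences of these 6 genes had adjusted p values between 0.00025 and 0.00114 in limma.

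The falls that siLRH-1 #1 did not give were larger. CFDP1 had 9.43, 9.56, 10.32 and 9.58 with siLRH-1 #1, beside the values of 7.98 to 8.77 with siLRH-1 #2 and 9.58 to 10.46 with siLUC. The siLRH-1 #1 and siLUC arrays overlapped, and those of siLRH-1 #2 lay below both. The difference between the siRNAs was −1.24 (adjusted p = 3.11e-05 from limma). DYNLRB1 differed by −1.21 and CPA4 by −1.08, since siLRH-1 #1 gave 0.09 and −0.29 for these genes.

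For several of these falls the value with siLRH-1 #1 was positive. PROSER1 had 7.27, 7.81, 7.75 and 7.76 on the siLRH-1 #2 arrays, 8.62, 8.71, 9.26 and 8.76 on the siLRH-1 #1 arrays, and 8.36, 9.04, 8.32 and 8.27 on the siLUC arrays. It fell by 0.85 with siLRH-1 #2 (set-adjusted −1.15) and had 0.34 with siLRH-1 #1, which was not called (adjusted p = 0.118 from limma). ARCN1 had −0.66 and 0.29, LITAF, a protein of lysosomal membranes, −0.61 and 0.21, and GNA11, a G protein α subunit, −0.46 and 0.27. A dimmer GNA11 probe had −0.08 and 0.14, neither of them called, while its difference between the siRNAs, −0.22, was called. GTF2E1 had −0.77 with siLRH-1 #2 and 0.02 with siLRH-1 #1. The adjusted p for the difference lay between 3.5e-06 and 4.9e-05 for these 5 genes in limma.

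LRRC8A, the obligatory subunit of the volume-regulated anion channel, was called in opposite directions by the siRNAs. It had 6.57, 6.93, 6.92 and 7.03 on the siLRH-1 #2 arrays, 7.84, 7.74, 8.47 and 7.82 on the siLRH-1 #1 arrays, and 7.48, 7.81, 7.19 and 7.37 on the siLUC arrays. The siLRH-1 #2 arrays were lowest, and those of siLRH-1 #1 and siLUC overlapped. It fell by 0.60 with siLRH-1 #2 (adjusted p = 0.00526 in limma; set-adjusted −0.85) and rose by 0.51 with siLRH-1 #1 (adjusted p = 0.00741). The same held for HCCS, which attaches haem to cytochrome c (−0.35 and 0.32), for CPLX1, a complexin of regulated exocytosis (−0.31 and 0.37), and for ATXN7L3B (−0.32 and 0.29). These 4 were the genes called in opposite directions. For HCCS, the siLRH-1 #2 and siLUC arrays overlapped, and a dimmer HCCS probe had −0.12 and 0.16 and was called with neither siRNA. A dimmer ATXN7L3B probe was called with both (−0.38 and 0.31). Set-adjusted, 44 rises and 51 falls were called in the opposite direction with siLRH-1 #1.

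**Figure D4:**
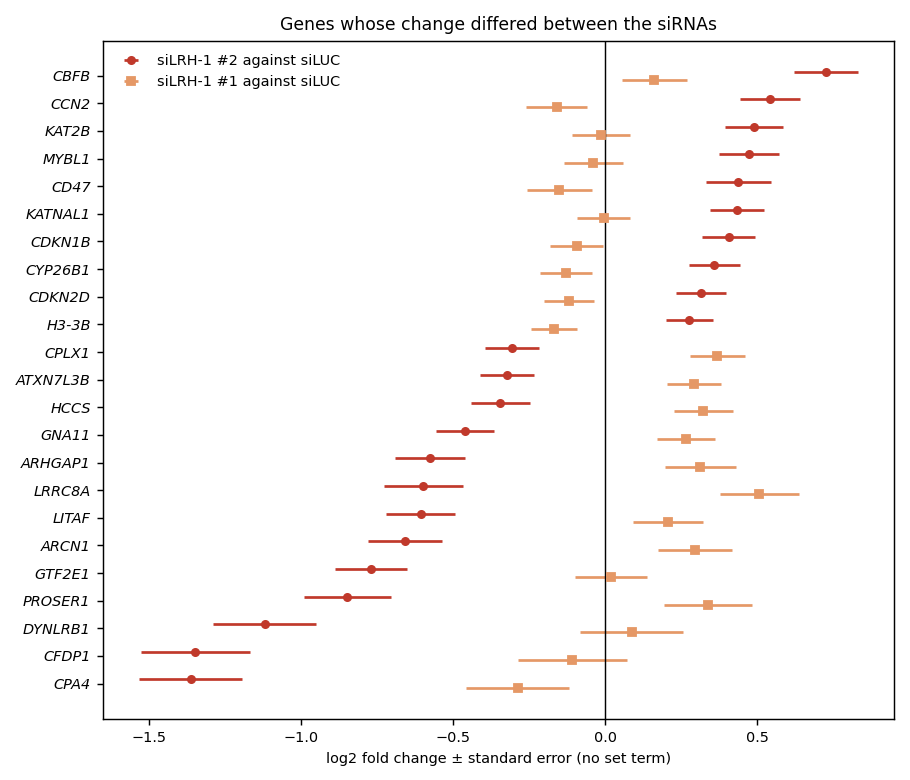
Log2 fold change ± standard error (horizontal axis) of the genes whose change differed most between the siRNAs, with siLRH-1 #2 against siLUC as circles and siLRH-1 #1 against siLUC as squares, in the fit without the set term. CCN2 had 0.54 and −0.16, and LRRC8A −0.60 and 0.51.

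Genes were next read by function, over 27 lists with 1599 genes. A list is described by its called members and its median log2 fold change, beside a median of 0.0028 over all genes and the called shares of 4.41% and 3.97% (6.72% and 6.04% when set-adjusted). Without siLRH-1 #2 replicate 1 or siLUC replicate 2, which stand alone in their sets for their groups, rises and falls kept their counts of 4 and 3 for chromatin genes, 1 and 3 for glycolysis, 1 and 3 for vesicle transport and 0 and 3 for metallothioneins. Without one or the other they fell to 1 and 0 or 2 and 1 for DNA repair, to 0 and 2 or 0 and 3 for β-catenin targets, to 0 and 0 or 0 and 1 for mitochondrial genes and to 5 and 2 or 4 and 2 for immediate early genes. In either case they fell to 2 and 1 for G1/S and for endoplasmic reticulum stress, 1 and 0 for amino acid supply, for apoptosis and for interferon genes, 1 and 1 for small RNA genes, 3 and 0 for autophagy, 3 and 1 for sterol genes, 4 and 1 for adhesion, 0 and 1 for ribosome biogenesis and 0 and 1 for LRH-1 targets. With the arrays centred on reference genes, rises and falls numbered 0 and 0 for DNA repair, β-catenin targets, mitochondrial genes, ribosome biogenesis, apoptosis and LRH-1 targets, 1 and 0 for G1/S, amino acid supply, immediate early, interferon, small RNA and autophagy genes, 0 and 1 for glycolysis and metallothioneins, 1 and 1 for vesicle transport and sterol genes, 2 and 1 for endoplasmic reticulum stress, 2 and 2 for chromatin and 3 and 1 for adhesion. Centring on reference genes moved list medians upwards, so that those of the mitochondrial (0.00619), amino acid supply (0.0356), vesicle transport (0.0335) and β-catenin (0.0305) lists, given as negative below, turned positive. The shares for lists of at least 10 measured genes are plotted together.

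**Figure D5:**
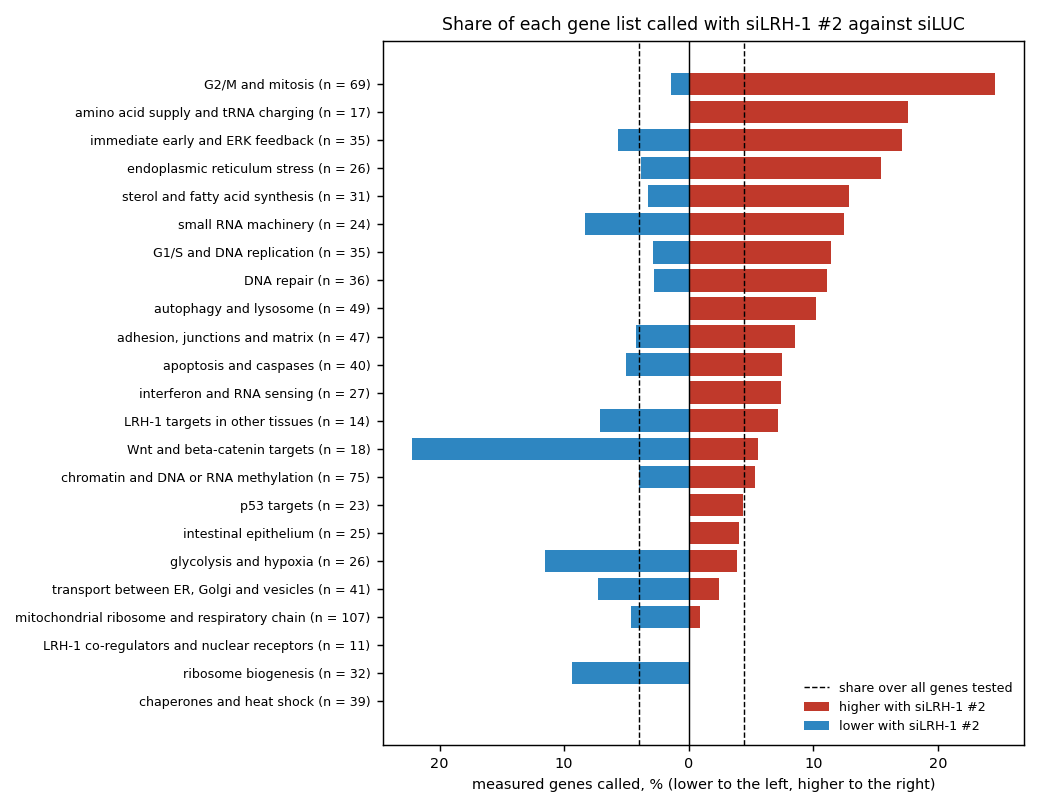
Share of the measured genes of each list that passed an adjusted p of 0.05 with siLRH-1 #2 against siLUC, higher to the right and lower to the left, in the fit without the set term. Dashed lines mark the shares over all 7452 genes (4.41% higher and 3.97% lower); the G2/M list lay farthest to the right, with 24.6% of 69 genes higher.

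Genes of the G2 phase and mitosis were among the rises, and 58 of 69 measured members had a positive log2 fold change, beside 50.9% of all genes. Of the 69, 17 rose, 1 fell and 51 did not pass the test, and 24 rose and 1 fell when set-adjusted. The 17 rises became 7 without siLRH-1 #2 replicate 1, 10 without siLUC replicate 2 and 1 with the arrays centred on reference genes. The list median was 0.12 (set-adjusted 0.17), and on single siLRH-1 #2 arrays, each set against the siLUC mean, it lay between 0.09 and 0.19. In bulk RNA, more cells in these phases and more of these transcripts per cell cannot be told apart. CDK1, the kinase that drives mitosis, had 10.996, 10.898, 11.141 and 10.791 with siLRH-1 #2 and 10.460, 10.455, 10.657 and 10.497 with siLUC. The groups lay apart, and CDK1 rose by 0.44 (standard error 0.082, adjusted p = 0.00148 from limma; set-adjusted 0.51).

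Its cyclin partners CCNB2 and CCNB1 rose by 0.31 and 0.29, and CCNB2 had 11.28, 11.33, 11.24 and 11.19 with siLRH-1 #2 and 10.97, 10.90, 10.94 and 10.96 with siLUC, again with no overlap. The motor and spindle genes KIF4A, KIF14, KIF11, KIF23, ASPM, CKAP2 and DLGAP5 rose by 0.21 to 0.27. The kinetochore genes NDC80, CENPF and CENPU rose by 0.26 to 0.34, and the condensin subunit NCAPG by 0.25. ECT2 and ANLN, which act in cytokinesis, rose by 0.38 and 0.29, and the nuclear lamin gene LMNB1 by 0.34. Of these 17 genes, ASPM and NCAPG also differed from siLRH-1 #1, which gave 0.02 for each (adjusted p for the difference 0.0229 and 0.0195 in limma). The member that fell was CDC25B, a phosphatase that activates CDK1, with 10.25, 10.33, 10.35 and 10.57 with siLRH-1 #2 and 10.90, 11.05, 10.73 and 10.79 with siLUC (log2 fold change −0.49, set-adjusted −0.60).

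Promoters of many such genes carry CCAAT boxes and, near the start, the cell cycle homology region, whose core is TTTGAA. The promoters of CDK1 and CCNB2 are shown because both genes rose with no overlap of the arrays and both hold these letters. They are RefSeq sequence of GRCh38.p14, on the plus strand, from 250 bases before the start to 50 after it, CDK1 at chr10:60778081-60778380 and CCNB2 at chr15:59104896-59105195. Capitals mark matches to CCAAT, to TTTGAA and, in CDK1, to the E2F letters TTTCGCGC.
CDK1: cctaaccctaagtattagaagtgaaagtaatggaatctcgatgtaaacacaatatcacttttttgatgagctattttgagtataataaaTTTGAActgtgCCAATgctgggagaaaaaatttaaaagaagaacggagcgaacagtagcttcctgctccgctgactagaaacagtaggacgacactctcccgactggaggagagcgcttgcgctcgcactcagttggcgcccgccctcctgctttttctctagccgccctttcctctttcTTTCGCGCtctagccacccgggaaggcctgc
CCNB2: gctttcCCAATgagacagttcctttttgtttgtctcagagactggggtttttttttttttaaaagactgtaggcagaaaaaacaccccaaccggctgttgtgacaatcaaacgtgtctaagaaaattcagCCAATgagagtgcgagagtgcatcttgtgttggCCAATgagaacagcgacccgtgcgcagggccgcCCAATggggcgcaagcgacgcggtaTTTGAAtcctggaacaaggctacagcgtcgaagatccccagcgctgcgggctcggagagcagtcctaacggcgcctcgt
In CDK1 the TTTGAA began 161 bases and the CCAAT 150 bases before the start, so that this TTTGAA did not lie near the start. In CCNB2 there were 4 CCAAT matches and a TTTGAA that began 29 bases before the start.

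Such letters were counted on both strands of the RefSeq promoters of 5903 of the 7452 genes, 524 of the 625 called genes among them. None of the strings searched contains another. TTTGAA was found in 18.9% of 281 promoters of genes that rose and in 7.0% of 243 of genes that fell, beside 10.7% of measured genes and 15.4% of all 27305 promoters of the table. In the G2/M list it was in 64.4% of 59 promoters, and in 13 of the 17 that rose. CCAAT was in 38.1% of rising and 35.0% of falling promoters, close to 36.6% of measured genes and 35.7% of the table, and in 67.8% of the G2/M list. E2F letters (TTTGGCGC, TTTCGCGC or TTTCCCGC) were in 5.69% of rising, 4.53% of falling and 4.52% of measured promoters, and in 2.79% of the table. These counts describe letters and not bound sites.

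Letters from an LRH-1 response element were searched as CAAGGTCA or CAAGGCCA. The site as the authors give it also has a pyrimidine before these letters and may end in G. The searched letters were found in 2.85% of the promoters of genes that rose and 4.12% of those that fell. They were in 2.39% of measured genes and 3.01% of the table. EPDR1 and CPA4, from the largest rises and falls, were among the genes with a match. They are shown as examples of such letters before genes that moved in opposite directions, as chr7:37920390-37920689 and chr7:130292911-130293210 of GRCh38.p14, both on the plus strand. Capitals mark TGACCTTG, which is CAAGGTCA on the other strand, and in CPA4 also ATTGG, which is CCAAT on the other strand.
EPDR1: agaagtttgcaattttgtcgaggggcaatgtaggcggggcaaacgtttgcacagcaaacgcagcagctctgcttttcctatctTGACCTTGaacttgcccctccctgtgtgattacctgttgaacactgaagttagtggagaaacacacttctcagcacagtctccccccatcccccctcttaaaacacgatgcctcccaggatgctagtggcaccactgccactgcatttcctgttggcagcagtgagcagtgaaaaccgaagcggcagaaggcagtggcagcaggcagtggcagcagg
CPA4: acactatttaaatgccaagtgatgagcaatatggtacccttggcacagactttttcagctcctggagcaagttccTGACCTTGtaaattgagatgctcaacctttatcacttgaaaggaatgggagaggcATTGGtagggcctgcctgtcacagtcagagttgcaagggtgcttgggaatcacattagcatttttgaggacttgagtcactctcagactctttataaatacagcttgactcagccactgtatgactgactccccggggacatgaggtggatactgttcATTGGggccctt
The match began 167 bases before the start in EPDR1 and 175 bases before it in CPA4. Read on the strand of CAAGGTCA, the base before the match is T in EPDR1 and A in CPA4. The CPA4 match thus lacks the pyrimidine that the authors place before these letters.

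Of 35 measured genes of the G1/S transition and DNA replication, 4 rose and 1 fell (5 and 1 when set-adjusted), with a median of 0.06 (set-adjusted 0.10). E2F5, an E2F transcription factor, rose by 0.58 and E2F3 by 0.36. CDC7, the kinase that fires replication origins, rose by 0.27 with siLRH-1 #2 and had −0.08 with siLRH-1 #1, a difference that was called (adjusted p = 0.00205 from limma). MCM3, of the replicative helicase, rose by 0.19, and the phosphatase gene CDC25A fell by 0.28.

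CDKN1A, which encodes the CDK inhibitor p21, had 12.32, 12.21, 12.24 and 12.21 with siLRH-1 #2 and 11.94, 11.65, 11.77 and 11.82 with siLUC. All siLRH-1 #2 arrays were above all siLUC arrays, and CDKN1A rose by 0.45 (standard error 0.066, adjusted p = 0.000134 from limma; set-adjusted 0.53). A dimmer CDKN1A probe had 0.10 and was not called. By the brightest probe of each gene, CDKN1A was the called member among 23 measured p53 target genes (2 rises when set-adjusted). That share, 4.35%, was close to the 4.41% of all genes that rose, and the list median was 0.10. GADD45A, a growth arrest gene, had 0.24 (adjusted p = 0.0503) and passed when set-adjusted (0.30, adjusted p = 0.0114), and its dimmer probe had 0.29 and was called without the set term (adjusted p = 0.0165 from limma). The CDK inhibitor genes of p21, p27 and p19 all rose with siLRH-1 #2, and those of p27 and p19 differed between the siRNAs. Those of p27 and p19 were named for that difference, so these genes do not stand for all CDK inhibitors.

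Among 36 measured genes of DNA repair, 4 rose and 1 fell (6 and 1 when set-adjusted). ERCC3, a helicase of nucleotide excision repair, rose by 0.32, the mismatch repair gene MSH6 by 0.27, FANCC of the Fanconi anaemia pathway by 0.26 and NBN, of the complex that senses broken DNA ends, by 0.20. BRCA1 fell by 0.25. MSH6 had 0.00 with siLRH-1 #1, and this difference was called (adjusted p = 0.0181 from limma).

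Among genes of the endoplasmic reticulum stress response, 4 of 26 rose and 1 fell (6 and 2 when set-adjusted), with a median of 0.09 (set-adjusted 0.13). ERO1A, which oxidises protein disulphide isomerase, rose by 0.62, and FICD, which modifies the chaperone BiP, by 0.53, while DERL2, which helps to clear misfolded proteins, had a fall of 0.53. For all 3 the arrays of the groups lay apart. Of 17 measured genes of amino acid supply and transfer RNA charging, 3 rose and 0 fell (limma, with 3 falls at an unadjusted p under 0.05; 3 and 1 when set-adjusted), and the list median was near 0 (−0.000855). The histidyl transfer RNA synthetase gene HARS1 rose by 0.44, CEBPG by 0.31 and ASNS by 0.28. CEBPG, a partner of ATF4, had −0.06 with siLRH-1 #1 and differed from it (adjusted p = 0.00251 from limma). Of 39 measured chaperone and heat shock genes 0 were called in limma, and 5 had an unadjusted p under 0.05.

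Secretory transport genes, which serve vesicle traffic through the Golgi, were not shifted as a list (median −0.00293 over 41 measured), with 1 rise and 3 falls (3 and 5 when set-adjusted). ARCN1 was the largest of the falls, with 9.22, 9.76, 9.80 and 9.70 with siLRH-1 #2 and 10.26, 10.65, 10.10 and 10.11 with siLUC. RAB2A, a Golgi GTPase, fell by 0.39 and, like ARCN1, differed from siLRH-1 #1, which gave 0.06 (adjusted p for the difference 0.0006 in limma). KDELR3, a retrieval receptor, fell by 0.27, and ARFGAP3, which acts on the coat GTPase ARF, rose by 0.40.

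Of 6 measured genes among the metallothioneins and zinc genes, MT1X, MT2A and MT1E fell, with a list median of −0.37 (set-adjusted −0.46, 4 falls). MT1X had 10.59, 10.78, 10.78 and 10.75 with siLRH-1 #2 and 11.15, 11.55, 11.07 and 11.22 with siLUC, and fell by 0.53 (adjusted p = 0.000597 from limma). MT2A had 12.47, 12.59, 12.62 and 12.40 with siLRH-1 #2 and 12.85, 12.92, 12.95 and 13.05 with siLUC, and fell by 0.42. In both the groups lay apart, whereas the MT1E arrays overlapped (−0.43). MT1X differed between the siRNAs, having −0.06 with siLRH-1 #1 (adjusted p for the difference 0.000745 in limma), and MT1E did so only when set-adjusted (adjusted p = 0.00982). Metallothioneins bind zinc and copper, and their sequences are so alike that a probe may read more than 1 of them. The zinc-sensing factor MTF1 had −0.31 (adjusted p = 0.0601).

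Of 26 measured genes of glycolysis and hypoxia, 1 rose and 3 fell (2 and 3 when set-adjusted). BNIP3, a mitophagy receptor induced in low oxygen, had 9.18, 9.39, 9.58 and 9.46 with siLRH-1 #2 and 9.97, 10.22, 9.85 and 10.03 with siLUC, and fell by 0.61 (set-adjusted −0.76). The groups did not overlap, and the fall exceeded that with siLRH-1 #1 (−0.25, adjusted p for the difference 0.00723 in limma). Hexokinase HK2 fell by 0.39 with siLRH-1 #2 and had 0.21 with siLRH-1 #1, and aldolase ALDOC fell by 0.28. A dimmer HK2 probe had −0.15 and was not called. Of 31 measured genes of sterol and fatty acid synthesis, 4 rose and 1 fell (4 and 2 when set-adjusted). DHCR7, which completes cholesterol synthesis, had 7.76, 8.09, 8.00 and 7.94 with siLRH-1 #2 and 8.37, 8.75, 8.39 and 8.46 with siLUC. It fell by 0.54 (set-adjusted −0.72), against 0.06 with siLRH-1 #1 (adjusted p for the difference 0.000115 in limma). The rises were those of MYLIP, which degrades the LDL receptor (0.43), INSIG2, which retains sterol sensors (0.38), HMGCS1, an early enzyme of the pathway (0.34), and the acyl-CoA synthetase gene ACSL1 (0.24).

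Of 107 measured genes of the mitochondrial ribosome and respiratory chain, 5 fell and 1 rose, or 4.67% and 0.935%, beside 3.97% and 4.41% of all genes, with a median of −0.03 (6 falls and 1 rise when set-adjusted). The 5 were the mitochondrial ribosomal genes MRPS7, MRPL43, MRPS14, MRPL17 and MRPL20 (−0.22 to −0.28), and the member that rose was MRPS33 (0.23). Of 32 measured genes of ribosome biogenesis, 3 fell (9.38%, beside 3.97% of all genes; 5 when set-adjusted), EMG1, DDX54 and NAT10 (−0.29 to −0.33), 0 rose (limma, with 3 rises at an unadjusted p under 0.05), and the median was −0.05.

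Signalling genes moved both ways. Of 35 measured immediate early and ERK feedback genes, 6 rose and 2 fell (6 and 5 when set-adjusted). Besides CCN2 (0.54) the rises were those of DUSP1 (0.38), DUSP5 (0.30) and DUSP6 (0.26), phosphatases that switch off MAP kinases, of CCN1 (0.30) and of FOS (0.26). MYC had 11.76, 11.86, 11.68 and 11.85 with siLRH-1 #2 and 12.21, 12.28, 12.06 and 12.10 with siLUC, and fell by 0.37 with no overlap. The AP-1 gene FOSL1 fell by 0.46, less than with siLRH-1 #1 (−0.82, adjusted p for the difference 0.000231 in limma).

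MYC and FOSL1 are also β-catenin targets. Of 18 measured genes of that list, 4 fell and 1 rose, and the median was −0.00598. The other falls were those of MYB, a transcription factor of crypt cells (−0.39, against 0.11 with siLRH-1 #1, adjusted p for the difference 0.000313 in limma), and DKK1, a secreted Wnt inhibitor (−0.22). LRIG1, which restrains ERBB receptors, rose by 0.23.

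Of 47 measured genes of adhesion, junctions and matrix, 4 rose and 2 fell (5 and 4 when set-adjusted). CLDN12 and HAS3, described above, were the extremes, and integrin β1, ITGB1, had 12.16, 11.96, 11.98 and 12.01 with siLRH-1 #2 and 11.60, 11.43, 11.59 and 11.53 with siLUC, a rise of 0.49 (adjusted p = 5.63e-05 from limma) with no overlap. The integrin αV gene ITGAV rose by 0.28 and the caveolin gene CAV2 by 0.41. The laminin gene LAMC1 fell by 0.30, against 0.09 with siLRH-1 #1 (adjusted p for the difference 0.00069 in limma). Of 75 measured genes of chromatin and of DNA or RNA methylation, 4 rose and 3 fell (8 and 8 when set-adjusted). These shares, 5.33% and 4.0%, were near the 4.41% and 3.97% of all genes, and the list median was 0.00137. The falls were those of DNMT3B (−0.64), of METTL3, the catalytic subunit that writes m6A on RNA (−0.58), and of the remodeller CHD8 (−0.32), and the rises those of KAT2B (0.49), the deacetylase HDAC3 (0.46), JARID2 (0.33) and BMI1 (0.30), both of Polycomb complexes.

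Of 24 measured genes of the small RNA and mRNA decay machinery, 3 rose and 2 fell (3 and 3 when set-adjusted). Those that rose were DCP2, DICER1, which makes small RNAs (0.31), and LSM14A (0.23), and those that fell were the decapping genes EDC3 (−0.41) and DCP1A (−0.22), so that decapping genes moved in both directions. Of 27 measured interferon and RNA sensing genes, 2 rose and 0 fell (limma, with 3 falls at an unadjusted p under 0.05), and 2 rose and 2 fell when set-adjusted. The ISG15 ligase gene HERC5 rose by 0.41 and had 0.01 with siLRH-1 #1 (adjusted p for the difference 0.00218 in limma), and the RNA sensor gene IFIH1 rose by 0.25. Of 49 measured genes of autophagy and the lysosome 5 rose and 0 fell (limma, with 7 falls at an unadjusted p under 0.05), ATG10 (0.42) and the lysosomal membrane gene LAMP2 (0.30) among them (6 and 1 when set-adjusted), and the list median was 0.01. The rise of LAMP2 rested on 1 of 6 probes, the other 5 having 0.01 to 0.21 and no call. Of 40 measured genes of apoptosis 3 rose (7.5%) and 2 fell (5.0%), beside 4.41% and 3.97% of all genes (4 and 3 when set-adjusted). BNIP2 (0.32) and DFFA (−0.29) were at the ends.

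Of 43 listed genes that LRH-1 is known to activate in other tissues, 14 were measured, of which 1 rose, KIF14 (0.26), and 1 fell, MYC (2 and 1 when set-adjusted), beside 8.39% of all genes called in either direction. The steroid and lipid genes CYP19A1 (0.08), CYP11A1 (−0.04), ABCG8 (0.05) and FASN (−0.02) and the cyclins CCND1 (0.17) and CCNE1 (0.15) were not called. Of 11 measured co-regulators and nuclear receptors 0 were called in limma, and 2 had an unadjusted p under 0.05. Of 25 measured genes of intestinal epithelium, 1 rose (4.0%, beside 4.41% of all genes), the carbonic anhydrase gene CA2. It had 10.66, 10.43, 10.60 and 10.42 with siLRH-1 #2 and 10.01, 9.91, 9.96 and 10.14 with siLUC. The log2 fold change was 0.53 (adjusted p = 0.000479 from limma) with no overlap. Of 7 measured reference genes 0 were called in limma and 0 had an unadjusted p under 0.05, with a median of 0.03.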

How the data were processed

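Total RNA of HCT116 cells was labelled and hybridised to 12 Illumina HumanHT-12 v4 arrays, 4 for each of siLRH-1 #2, siLRH-1 #1 and siLUC. The authors read the scans with GenomeStudio, dropped probes whose detection p-value exceeded 0.05 on each array, and applied a log2 transformation and quantile normalization in Partek (versions not given in the sources used here). The log2 intensities they deposited were used as they were. Quantile normalization gives all arrays the same distribution and so hides any shift common to most transcripts. A table of non-normalized signals was not used, because its 24 columns match no sample label. Groups came from the sample labels.

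The 12 arrays and 16381 probes entered 1 model of 3 groups in limma 3.58.1 (R 4.3.3; residual degrees of freedom 9, prior 14.6). Benjamini-Hochberg adjustment ran over all probes, with a threshold of 0.05, and the scripts were tested on simulated data. Set-adjusted values came from the same model with a term for the 2 sets of arrays (8 residual and 14.4 prior degrees of freedom), chosen after the data were seen. The number of arrays limits the precision.

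Symbols came from the platform annotation, with 1 symbol for 9910 probes, several for 4 and none for 6467, and 9904 probes matched RefSeq by gene ID, which changed 0 symbols. The brightest probe stood for a gene. Genes were named by rule, as the 15 largest rises and falls, the 10 rises and 10 falls that differed most from siLRH-1 #1 without a call in the same direction with it, genes called in opposite directions, up to 4 members of each list by p, and CDKN1A. Further called members of lists were named after their values were seen. The comparison, the gene lists and the rule were chosen with earlier results of these data known.

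Alternatives were a replicate block, the 8 arrays of a comparison alone, each probe's own variance, an intensity trend, array weights, an adjusted p under 0.01, a mean log2 of at least 7, 16 added before log2, cyclic loess, centring on reference genes and each array left out. Single sets of arrays, and the list counts under several settings, were added after the data were seen. Promoter sequences were those of RefSeq on GRCh38.p14. Figures used Python 3.11.15 and matplotlib 3.10.9.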

Additional observations from a re-analysis of the deposited data

Results flagged for a closer look

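In the 144 named genes, 288 groups of 4 arrays (siLRH-1 #2 and siLUC) were searched for an array far from the other 3, by a gap large relative to the range of the group (Dixon's criterion), and 21 were found. Chance gives about 1 in 20 for independent groups. Most of these genes were named by their change on the same arrays, and all share those arrays, so that rate is no test here. Of the 21, 10 were replicate 1 of siLRH-1 #2, the only siLRH-1 #2 array in the set of 7, and 5 were replicate 2 of siLUC, the only siLUC array in the set of 5.

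Replicate 1 of siLRH-1 #2 was the highest array of its group for DCP2 (10.08, others 9.692 to 9.741), EPDR1 (10.21, others 9.776 to 9.84), CCN2 (8.953, others 8.55 to 8.57), GULP1 (7.847, others 7.496 to 7.509), FHIP2A (9.418, others 8.951 to 9.002) and BID (8.874, others 8.696 to 8.724). It was the lowest for ARCN1 (9.218, others 9.704 to 9.801), PROSER1 (7.268, others 7.754 to 7.813), MT1X (10.59, others 10.75 to 10.78) and MRPL43 (10.57, others 10.84 to 10.89). All these genes had been called, and in each this array lay farther from siLUC than the other siLRH-1 #2 arrays.

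Replicate 2 of siLUC was the highest of its group for CFDP1 (10.46, others 9.576 to 9.675), CPA4 (9.889, others 9.173 to 9.293), PROSER1 (9.038, others 8.274 to 8.358) and ASCC3 (8.861, others 8.791 to 8.802), and the lowest for HARS1 (9.814, others 10.16 to 10.19). Replicate 3 of siLUC was the highest for CEBPG (9.429) and HDAC3 (9.194) and the lowest for DNMT3B (8.037) and EPCAM (11.94). The remaining values were ASNS in siLRH-1 #2 replicate 2 (10.87, others 10.64 to 10.68) and GUSB in siLUC replicate 4 (8.801, others 8.499 to 8.548).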

How the results depend on the processing

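The counts compared were the 936 probes called with siLRH-1 #2 against siLUC, the 2068 called against siLRH-1 #1, and the 168 genes called with siLRH-1 #2 that also differed from siLRH-1 #1 in the direction of their change. They stayed within 1.5 times of these values with the 8 arrays of a comparison alone, an intensity trend, array weights, 16 added before log2 and cyclic loess. Each probe's own variance gave 367 and 5 for the first and the last, an adjusted p under 0.01 gave 466, 1194 and 62, and centring on reference genes gave 165, 595 and 32, with 79.5% of calls against siLRH-1 #1 higher, in place of 53.8%. A mean log2 of at least 7 gave 286 for the last. Leaving out single arrays gave 498 to 957, 1299 to 2055 and 57 to 176. The lowest were without siLRH-1 #2 replicate 1. Without siLUC replicate 2 the first was 514 and the last 94, and without siLRH-1 #1 replicate 3 the second was 1302. The set term gave 1428 and 466 for the first and the last, the set of 5 alone gave 273, 975 and 72, and the set of 7 alone gave 366 and 991. Within a set, a group of 1 array was assumed to vary like the others. Apart from fewer arrays or a stricter threshold, the cause of these changes was not tested.

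Of the 111 called genes that were named, 0 changed direction. The set term ended 0 of their calls, cyclic loess 1 (ASNS), centring on reference genes 52, the set of 5 alone 52, the set of 7 alone 36, the loss of siLRH-1 #2 replicate 1 30, that of siLUC replicate 2 26 and that of any other array of these groups 8 to 14.

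The values gave no clear sign that replicate numbers pair the samples, and the labels do not say whether they do. Deviations of same-numbered arrays from their group means correlated between −0.041 and 0.043, an array correlated best with its own number in 9 of 24 comparisons with another group, and the replicate block gave 899, 2026 and 178 for the counts, ending 1 named call (ASNS).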
